A study of Mus musculus with 8 samples.

Results

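Transcripts of 9 complement components and regulators were examined in mouse retina: C1qa, C1qb, C1qc, C1ra, C4b, C3, Cfb, Serping1 and Cfi. The genes were taken by name from the deposited tables, which hold 54532 genes, and all 9 were found. The series concerns vesicle uptake, delivery of drugs and protection of retinal neurons, and its libraries fall into 2 groups of 4. The sIVs group is named with the series' abbreviation for small intracellular vesicles, and the PBS group is labelled as its control, with replicates 1, 3, 4 and 5 in each. Strain, age, dose, route, time and any injury are not given in the labels, and although each library is called a replicate biosample, no animal is named. A p-value here reflects the spread among the 8 libraries alone, part of which may be technical.

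Complement is a cascade of plasma and tissue proteins that tags surfaces for removal. In the classical pathway C1q, built from A, B and C chains, binds a target and activates the proteases C1r and C1s, which cleave C4 and C2; the resulting enzyme cleaves C3, and factor B amplifies that step. The C1 inhibitor, encoded by Serping1, blocks C1r and C1s, and factor I, encoded by Cfi, degrades active C3 and C4 fragments. In neural tissue C1q is known mainly as a microglial product, and in the developing visual system C1q and C3 are known to mark synapses for removal by microglia.

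Depth ran between 13803958 and 16622259 counts per library. Of 17004 genes that passed the count filter, edgeR's quasi-likelihood test with Benjamini-Hochberg adjustment called 0 at 0.05. Limma-voom called 0 of the same genes, and DESeq2 0 of the 31766 genes with any count. At an unadjusted p under 0.05, edgeR gave 255 genes, DESeq2 494 and limma-voom 455. Retinal identity was plain in all libraries: 8 markers of photoreceptors, bipolar cells, Müller glia and ganglion cells summed to between 31637 and 51209.8 CPM in sIVs retinas and between 27006 and 50361 CPM in PBS retinas (CPM, counts relative to the scaled library size). The liver gene Alb, a marker of plasma protein sources outside the eye, stayed at or below 0.142 CPM. Some libraries stood apart. PBS replicate 1 was lowest of the 8 libraries for 11 of 12 microglia markers, 9 of 10 gliosis transcripts and 9 of 9 interferon response transcripts. By summed CPM, sIVs replicate 1 was next lowest in each list, at 135, 368 and 76.2 (PBS replicate 1: 58.7, 183 and 38.3). sIVs replicate 4 held 385 summed CPM of 8 pigment epithelium markers, against 8.03, 33.4 and 51.0 CPM in sIVs replicates 3, 1 and 5 and 7.26 to 45.4 CPM in PBS retinas. Singly, 4 of the 8 (Rpe65, Rgr, Ttr and Lrat) were highest in sIVs replicate 4. Best1, Pmel, Tyrp1 and Mlana were highest in other libraries. In bulk tissue, fewer cells of a type and less RNA per cell cannot be told apart.

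No complement transcript was called different between sIVs and PBS retinas. Of the 9 genes, 8 passed the count filter, and 0 of these 8 had an adjusted p under 0.05, where the share of all tested genes was 0%. Before adjustment, too, 0 of 8 had a p under 0.05, which 1.5% of all tested genes had. None of the 9 genes separated the groups in CPM, which 2.01% of tested genes did (1.08% with sIVs higher and 0.929% with sIVs lower). The log2 fold change, sIVs over PBS, was above 0 for 5 of 8 genes, against 51.3% of all genes, and its median was 0.10, against 0.01 over all genes tested. Libraries of the same group differed widely in these genes. The pooled within-group SD of log2 CPM exceeded that of 97.1% to 99.6% of tested genes for 7 of the 8, all but Cfi at 79.3%. Their median within-group SD was 1.29, against 0.29 over all genes tested.

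**Figure D1:**
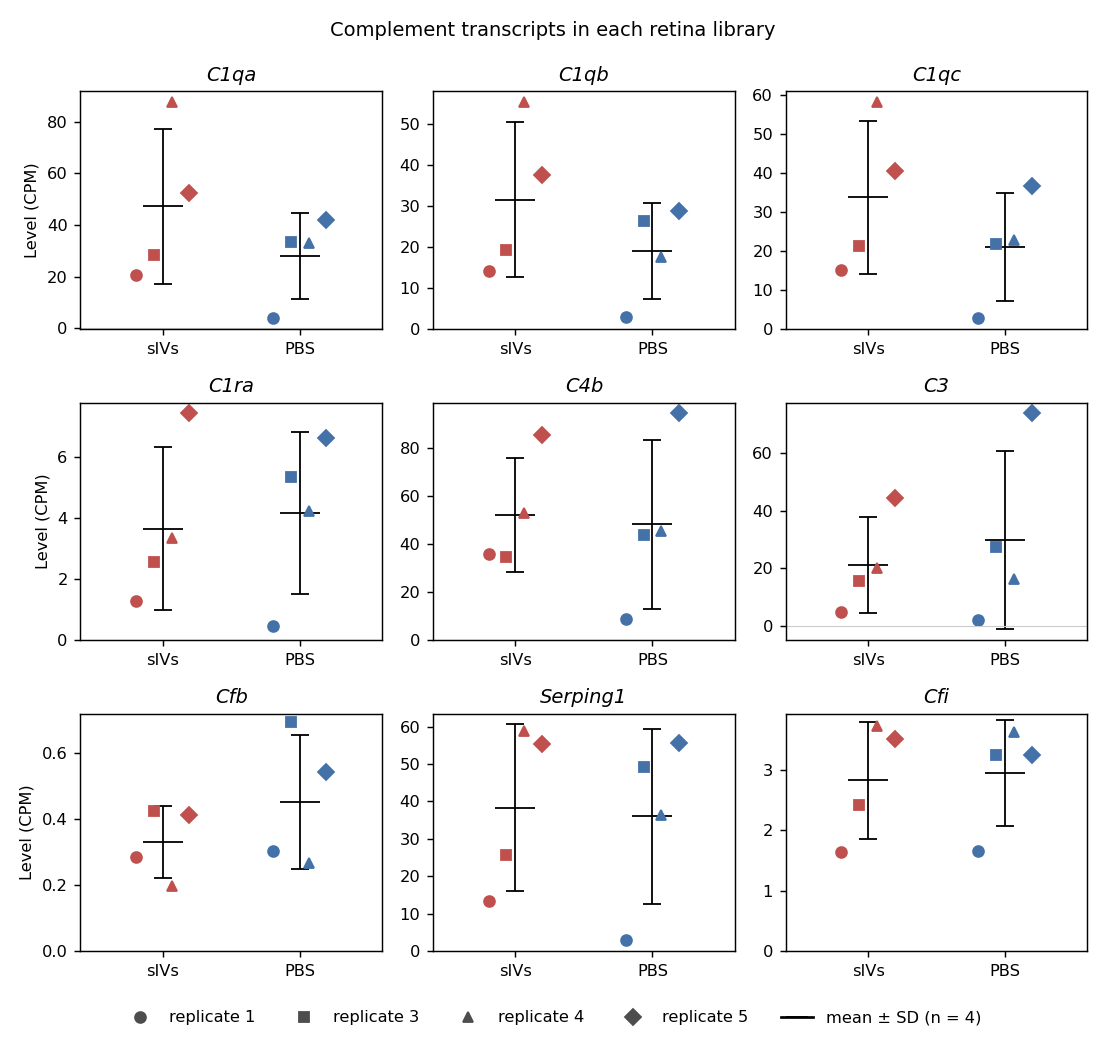
Level of each of the 9 complement genes in CPM (vertical axes, linear) in the 4 sIVs libraries (red, left) and the 4 PBS libraries (blue, right); symbols mark the replicate number, bars the group mean ± SD. The groups overlap in all 9 panels, and PBS replicate 1 is the lowest library in 7 of them.

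Per listed gene length, C1qa and C1qb were the most abundant of the 9 transcripts. In FPKM, the deposited measure that divides fragments by listed gene length and library depth, C1qa was highest and C1qb next in all 8 libraries. C1qa stood at 44.3 ± 28.0 FPKM in sIVs and 26.5 ± 15.8 FPKM in PBS retinas (SD, n = 4 each), and C1qb at 28.3 ± 16.8 FPKM in sIVs and 17.1 ± 10.6 FPKM in PBS retinas (SD, n = 4 each). The third place fell to Serping1 in 5 libraries and to C1qc in 3. Serping1, at 16.1 ± 9.27 FPKM in sIVs and 15.2 ± 9.88 FPKM in PBS retinas, and C1qc, at 17.0 ± 9.82 FPKM in sIVs and 10.7 ± 7.09 FPKM in PBS retinas (SD, n = 4 each), thus lay within each other's spread. C4b followed at 8.96 ± 4.05 FPKM in sIVs and 8.35 ± 6.13 FPKM in PBS retinas, then C3 at 4.02 ± 3.15 FPKM in sIVs and 5.71 ± 5.95 FPKM in PBS retinas (SD, n = 4 each). C1ra and Cfi lay close together near 1 FPKM and exchanged places between libraries, and Cfb was lowest in all 8. The listed length exceeds the longest protein-coding transcript for Serping1 (2325 against 1768 bases) and C1qc (1931 against 1203). For C1qa (1040) and C1qb (1088) both lengths are equal. The order of C1qb, Serping1 and C1qc therefore depends on the length used.

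C1qa encodes the A chain of C1q, the recognition molecule of the classical pathway. It lies on the minus strand of chromosome 4 (136895917 to 136898803, mm10), in a cluster with C1qc (136889804 to 136893065) and C1qb (136880129 to 136886187). C1qa stood at 20.6, 28.5, 87.6 and 52.3 CPM in sIVs replicates 1, 3, 4 and 5, and at 3.86, 33.2, 33.1 and 41.9 CPM in PBS replicates 1, 3, 4 and 5. sIVs replicate 4 was the highest library, PBS replicate 1 was lower than every other library by 5.33-fold or more, and the remaining 6 libraries of both groups interleaved. The log2 fold change was 0.75 ± 0.64 (SE; 95% confidence interval -0.50 to 2.00; edgeR adjusted p = 0.81).

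C1qb, the gene of the B chain, stood at 14.0, 19.2, 55.3 and 37.7 CPM in sIVs replicates 1, 3, 4 and 5, and at 3.02, 26.4, 17.5 and 28.9 CPM in PBS replicates 1, 3, 4 and 5. C1qc, the gene of the C chain, stood at 15.1, 21.2, 58.2 and 40.6 CPM in sIVs replicates 1, 3, 4 and 5, and at 2.95, 21.8, 22.8 and 36.8 CPM in PBS replicates 1, 3, 4 and 5. Both repeated the order seen for C1qa at its ends, with sIVs replicate 4 highest, sIVs replicate 5 next, and PBS replicate 1 and sIVs replicate 1 lowest. Log2 fold changes were 0.73 ± 0.62 for C1qb and 0.68 ± 0.63 for C1qc (SE; edgeR adjusted p = 0.81 for each). These values depended on single libraries: with PBS replicate 1 left out, C1qa, C1qb and C1qc had log2 fold changes of 0.38, 0.37 and 0.31. With sIVs replicate 4 left out they were 0.26, 0.31 and 0.27, and with both libraries left out they were -0.09, -0.04 and -0.08. As the lowest and the highest library of these chains, this pair had to lower the values when left out. Without sIVs replicate 1 they rose to 0.99, 0.97 and 0.91, and without PBS replicate 5 to 1.01, 1.00 and 1.08. The high summed level of pigment epithelium markers in sIVs replicate 4 stood beside its high C1q. The part of these markers in the C1q values was not tested.

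The upstream region of C1qb is shown because the ratios among the 3 chain genes spanned at most 1.59-fold while their sum spanned 20.5-fold. It covers chr4:136886201-136886450 on the minus strand (RefSeq, GRCm38.p6), the 250 bases before the transcript start, read in the direction of transcription, with a match to the PU.1 core GAGGAA in capitals.
C1qb: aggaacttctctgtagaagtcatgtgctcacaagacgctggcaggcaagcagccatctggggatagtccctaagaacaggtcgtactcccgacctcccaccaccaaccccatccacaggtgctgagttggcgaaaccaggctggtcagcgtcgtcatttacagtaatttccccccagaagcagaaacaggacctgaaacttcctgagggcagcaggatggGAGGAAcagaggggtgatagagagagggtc
PU.1 is a transcription factor of myeloid cells. The match lies 30 to 25 bases before the start, and 23.3% of 32851 promoter windows of the same length hold GAGGAA on either strand. Whether this match bears on the C1q levels was not tested. No other searched motif (GAS as TTCNNNGAA, C/EBP as TTGCNNAA, and the interferon-stimulated response element; both strands) was found in these 250 bases.

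The 3 C1q chains moved together across libraries. Summed over the chains, the level was 49.7, 69.0, 201 and 131 CPM in sIVs replicates 1, 3, 4 and 5, and 9.83, 81.4, 73.4 and 108 CPM in PBS replicates 1, 3, 4 and 5. Over this 20.5-fold range the ratio of C1qa to C1qb in FPKM was 1.55 ± 0.0834 in sIVs and 1.54 ± 0.309 in PBS retinas (SD, n = 4 each), and stayed between 1.31 and 1.98. The ratio of C1qc to C1qb was 0.606 ± 0.0112 in sIVs and 0.617 ± 0.132 in PBS retinas (SD, n = 4 each). It lay between 0.592 and 0.620 in sIVs and between 0.464 and 0.737 in PBS retinas. The lower FPKM of C1qc rests on its listed length of 1931 bases, whereas its longest protein-coding transcript in GENCODE M21 has 1203.

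C1qa, whose highest library was 22.7 times its lowest, varied more between libraries than most markers of microglia. The 12 microglia markers, of which only Fcrls was at 0 in some library, summed to 135, 159, 214 and 255 CPM in sIVs replicates 1, 3, 4 and 5, and to 58.7, 158, 144 and 201 CPM in PBS replicates 1, 3, 4 and 5, a 4.34-fold range. All 12 had a log2 fold change above 0, against 51.3% of all tested genes, and edgeR called none of them. PBS replicate 1 was the lowest library for 11 of the 12, so the 12 signs are not independent of each other. Some homeostatic markers spanned less than C1qa: P2ry12, a purine receptor, spanned 2.35-fold, Tmem119 2.11-fold and the fractalkine receptor gene Cx3cr1 4.55-fold. Fcrls, at 0 CPM in PBS replicate 1 and 3.23 CPM in sIVs replicate 5, has no defined span. Trem2, a lipid receptor gene, spanned 12.5-fold, and Tyrobp, the gene of its signalling adaptor, spanned 52.4-fold and was the 1 marker with counts in every library that exceeded C1qa. The summed C1q level per summed marker level was 0.564 ± 0.258 in sIVs and 0.432 ± 0.176 in PBS retinas (SD, n = 4 each). It was highest in sIVs replicate 4, at 0.941, lowest in PBS replicate 1, at 0.168, and between 0.368 and 0.535 in the other 6 libraries. Markers of monocytes and perivascular macrophages, 8 of 9 of which were at 0 in some library, summed to between 11.4 and 109.8 CPM in sIVs and between 0.907 and 99.4 CPM in PBS retinas, mostly from Lyz2, which microglia can also express; their part in the C1q levels was not tested.

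**Figure D2:**
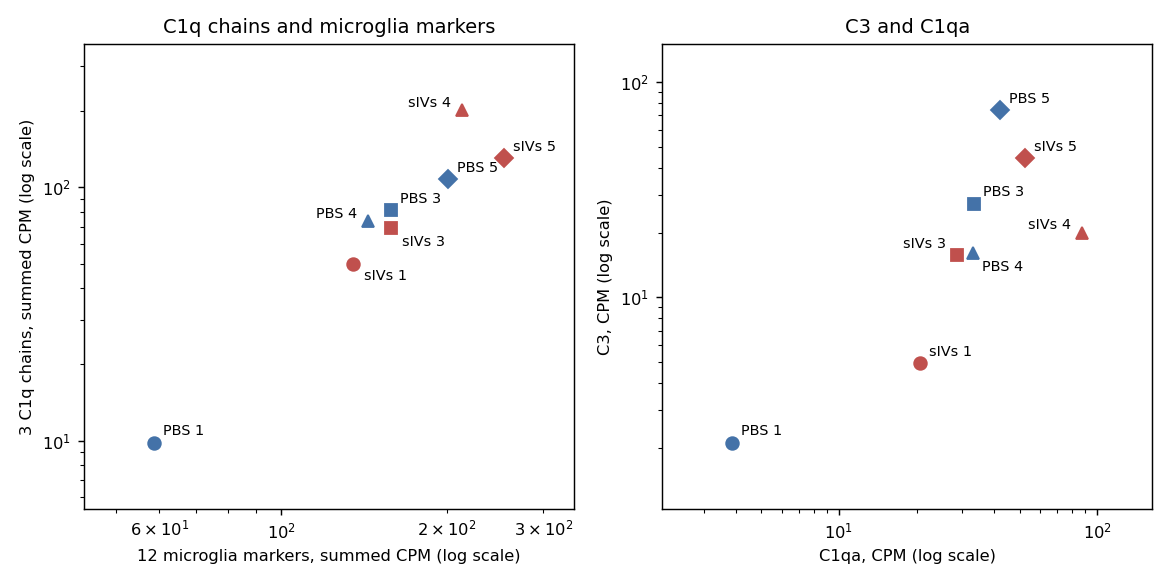
Left, summed CPM of the 3 C1q chains against summed CPM of 12 microglia markers; right, C3 against C1qa in CPM; all axes are logarithmic, and each point is 1 library (red sIVs, blue PBS, symbols by replicate number). PBS replicate 1 is lowest on every axis, and sIVs replicate 4, highest in C1q at 201 CPM, lies at 19.9 CPM of C3.

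C1ra encodes C1r, the protease that C1q sets in motion (chromosome 6, 124512405 to 124523443, plus strand). It stood at 1.29, 2.56, 3.34 and 7.43 CPM in sIVs replicates 1, 3, 4 and 5, and at 0.454, 5.32, 4.23 and 6.62 CPM in PBS replicates 1, 3, 4 and 5. Replicate 5 was highest in each group, and sIVs replicate 4 was not the highest library, as it was for the C1q chains. For C1ra the log2 fold change was -0.19 ± 0.69 (SE; 95% confidence interval -1.55 to 1.16; edgeR adjusted p = 0.932). Its sign turned when sIVs replicate 1 (0.08) or PBS replicate 5 (0.12) was left out, and it was -0.80 with sIVs replicate 5 left out and -0.57 with PBS replicate 1 left out. C1ra has a close copy, C1rb, listed at 0 to 12 counts per library: 26.3% of the 150-base windows of the C1ra transcript occur unchanged in a C1rb transcript, so reads can be shared and the level is uncertain.

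C4b encodes C4, the target of C1s, and lies in the histocompatibility region of chromosome 17 (34728380 to 34743882, minus strand). It stood at 35.8, 34.6, 53.2 and 85.5 CPM in sIVs replicates 1, 3, 4 and 5, and at 8.69, 43.9, 45.8 and 94.9 CPM in PBS replicates 1, 3, 4 and 5. Replicate 5 was again highest in each group, and PBS replicate 1 was lowest by 3.98-fold. The log2 fold change was 0.11 ± 0.57 (SE; 95% confidence interval -1.01 to 1.24; edgeR adjusted p = 0.953); with PBS replicate 1 left out it was -0.24, with sIVs replicate 5 left out -0.23, and with PBS replicate 5 left out 0.67. C4a, a close copy of C4b, stood at 2.37 ± 1.37 CPM in sIVs and 2.26 ± 0.668 CPM in PBS retinas (SD, n = 4 each), and 8.26% of the 150-base windows of C4b occur in C4a, so a part of its reads can be shared.

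C3 encodes the central component on which all complement pathways converge (chromosome 17, 57203970 to 57228136, minus strand). It was the most variable of the 9, with 4.94, 15.7, 19.9 and 44.3 CPM in sIVs replicates 1, 3, 4 and 5, and 2.12, 27.3, 16.1 and 73.7 CPM in PBS replicates 1, 3, 4 and 5. PBS retinas thus held both the highest and the lowest library, 34.8-fold apart, and enclosed the whole sIVs range. The log2 fold change was -0.49 ± 0.87 (SE; 95% confidence interval -2.20 to 1.22; edgeR adjusted p = 0.862). Leaving out PBS replicate 5 gave 0.47, and leaving out sIVs replicate 5 gave -1.14.

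The region before C3 is shown beside that of C1qb because the order of libraries differed: C1q peaked in sIVs replicate 4 and C3 in PBS replicate 5. It covers chr17:57228137-57228386 on the minus strand (RefSeq, GRCm38.p6), the 250 bases before the start, with a match to the C/EBP motif TTGCNNAA in capitals.
C3: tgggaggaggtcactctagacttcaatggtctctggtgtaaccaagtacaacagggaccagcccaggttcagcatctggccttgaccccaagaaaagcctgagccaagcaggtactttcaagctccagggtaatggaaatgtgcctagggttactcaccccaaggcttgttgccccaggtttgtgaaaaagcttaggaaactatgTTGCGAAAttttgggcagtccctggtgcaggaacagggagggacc
C/EBP factors are activators of acute-phase genes. The match lies 45 to 38 bases before the start, and 9.56% of 32851 windows hold TTGCNNAA on either strand, while GAGGAA, TTCNNNGAA and the interferon-stimulated response element were not found in these bases. Whether this match bears on the C3 levels or their order was not tested. RefSeq windows were also at hand for C1qc and C1ra, but these run into the genes as the authors list them and are not printed; C1qa, C4b, Cfb, Serping1 and Cfi had no entry.

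The proportion of C3 to C4b and to C1qa varied more than that among the C1q chains. C3 over C4b in FPKM was 0.153, 0.503, 0.415 and 0.573 in sIVs replicates 1, 3, 4 and 5, and 0.270, 0.687, 0.390 and 0.861 in PBS replicates 1, 3, 4 and 5. This ratio spanned 5.63-fold, and C3 over C1qa spanned 7.73-fold, with 0.0460 in sIVs replicate 4 and 0.355 in PBS replicate 5 at its ends. C4b over C1qa lay between 0.111 and 0.318 in sIVs and between 0.241 and 0.413 in PBS retinas. The gliosis transcripts, all 10 detected, summed to between 368 and 1045 CPM in sIVs and between 183 and 889 CPM in PBS retinas. Their sum was lowest in PBS replicate 1, as were C3 and C4b, and highest in sIVs replicate 4, where C3 and C4b were not. Singly, 9 of the 10 were lowest in PBS replicate 1 and 4 were highest in sIVs replicate 4. The part of gliosis transcripts in these levels was not tested.

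Cfb encodes factor B, the protease of the alternative pathway (chromosome 17, 34856374 to 34862518, minus strand), and was barely detected. It had 4, 6, 3 and 6 counts in sIVs replicates 1, 3, 4 and 5, and 4, 12, 4 and 9 counts in PBS replicates 1, 3, 4 and 5. At 0.330 ± 0.109 CPM in sIVs and 0.452 ± 0.202 CPM in PBS retinas (SD, n = 4 each) it did not pass the count filter. Without the filter its log2 fold change was -0.46 ± 0.55 (SE; edgeR adjusted p = 0.796). The predicted read-through gene Gm20547 overlaps Cfb on the same strand, holds 80.7% of its 150-base windows and is listed at 0 counts in all libraries. How the counter treated reads that fit both genes is not given in the sources used here, so the level of Cfb is uncertain.

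Serping1, the gene of the C1 inhibitor, lies on chromosome 2 (84765387 to 84775444, minus strand). It stood at 13.5, 25.8, 58.7 and 55.3 CPM in sIVs replicates 1, 3, 4 and 5, and at 3.10, 49.1, 36.4 and 55.5 CPM in PBS replicates 1, 3, 4 and 5. The highest libraries of both groups were nearly level, and replicate 1 was lowest in each group. The log2 fold change was 0.09 ± 0.71 (SE; 95% confidence interval -1.30 to 1.48; edgeR adjusted p = 0.968) and turned to -0.30 when PBS replicate 1, to -0.20 when sIVs replicate 4 and to -0.14 when sIVs replicate 5 was left out. Serping1 was higher than C1ra, the protease its product inhibits, in all libraries, with a ratio in FPKM of 14.6 ± 5.56 in sIVs and 10.6 ± 1.30 in PBS retinas (SD, n = 4 each). The 9 interferon response transcripts, all detected, summed to 76.2 to 493 CPM in sIVs and 38.3 to 320.5 CPM in PBS retinas. Their sum had the same lowest and the same highest library as Serping1. Singly, all 9 were lowest in PBS replicate 1, and 6 were highest in sIVs replicate 4. Their part in the Serping1 levels was not tested.

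Cfi, the gene of factor I, lies on chromosome 3 (129835884 to 129875332, plus strand) and had the smallest spread between libraries of the 8 tested genes. It stood at 1.65, 2.41, 3.73 and 3.51 CPM in sIVs replicates 1, 3, 4 and 5, and at 1.66, 3.24, 3.63 and 3.25 CPM in PBS replicates 1, 3, 4 and 5. Only replicate 1 of each group was below 2 CPM, and the other 6 libraries lay within 2.41 to 3.73 CPM. For Cfi the log2 fold change was -0.06 ± 0.34 (SE; 95% confidence interval -0.72 to 0.60; edgeR adjusted p = 0.955). Its direction was not stable either: it was 0.12, 0.0064 and 0.05 with sIVs replicate 1, sIVs replicate 3 and PBS replicate 4 left out in turn, and -0.26 with PBS replicate 1 left out. Among genes within 2-fold of its mean level its within-group SD exceeded that of 59.4%, where the other 7 tested genes exceeded 96.6% to 99.7% of genes near their own levels.

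**Figure D3:**
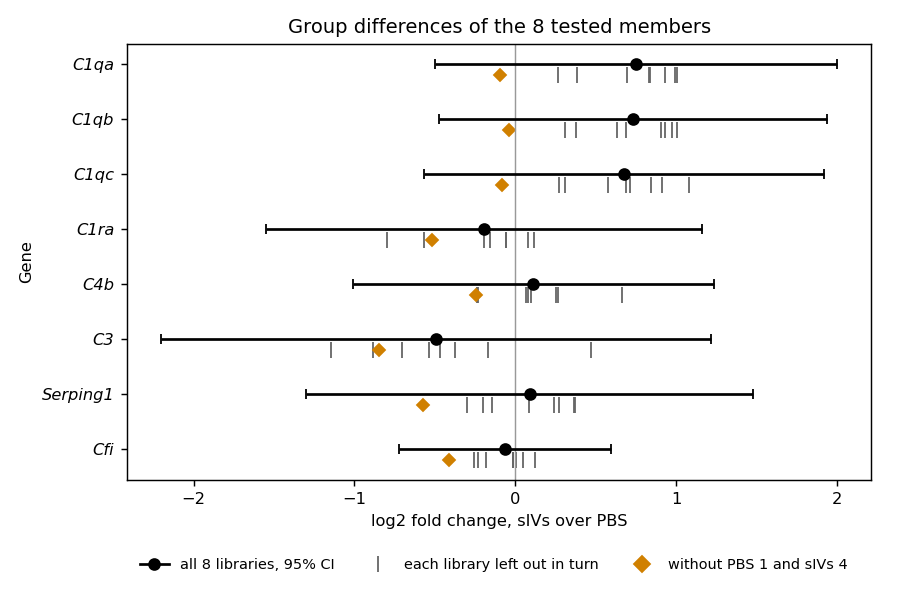
Log2 fold change, sIVs over PBS (horizontal axis), of the 8 tested complement genes; black points and bars give the edgeR value and its 95% confidence interval, grey ticks the value with each library left out in turn, and diamonds the value without PBS replicate 1 and sIVs replicate 4. All 8 intervals include 0. Without both libraries, which are the lowest and the highest for the C1q chains and Serping1, all 8 values lie below 0. This follows in part from which libraries were picked.

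How many of the genes lay above 0 depended on which libraries entered the fit. With all 8 libraries 5 of 8 log2 fold changes were above 0. Leaving out PBS replicate 1 together with sIVs replicate 4, which lie at opposite ends for the C1q chains and Serping1, made this 0 of 8. Without PBS replicate 1 alone it was 3 of 8, as it was without sIVs replicate 5, and without sIVs replicate 4 alone it was 4 of 8. Without sIVs replicate 1 or PBS replicate 5 it was 7 of 8. PBS replicate 1 was also lowest for C1ra, C4b and C3, and sIVs replicate 4 highest for Cfi. The count of 0 of 8 thus follows in part from which libraries were picked. C1ra, C3 and Cfi were below 0 with all 8 libraries. In none of these settings was a complement gene called. PBS replicate 1 was the lowest library for 7 of the 9 genes, and sIVs replicate 4 the highest for 5 (C1qa, C1qb, C1qc, Serping1 and Cfi), PBS replicate 5 for C4b and C3, sIVs replicate 5 for C1ra and PBS replicate 3 for Cfb. sIVs replicate 1 was lowest or second lowest for 7 of the 9.

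Pairs of tested genes were compared by the root mean square difference of their log2 CPM over the 8 libraries, each centred on its own mean. The C1q chains were nearest to each other, at 0.13 for C1qa and C1qc, 0.18 for C1qa and C1qb and 0.20 for C1qb and C1qc. Serping1 came next to them, at 0.40 from C1qa, and C1ra lay at 0.43 from Serping1 and 0.45 from C4b. C3 was nearest to C1ra, at 0.49, and farthest from Cfi, at 1.18, the largest distance of the 28 pairs.

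Outside the set, the same measure over 13780 protein-coding genes placed H2-K1, a class I histocompatibility gene, nearest to C1qa at 0.21. Cd48 (0.26), Serpina3n (0.26), Apod (0.28) and Rac2 (0.29) followed. H2-K1 stood at 13.3, 22.7, 72.4 and 45.1 CPM in sIVs replicates 1, 3, 4 and 5, and at 4.38, 31.4, 29.3 and 35.5 CPM in PBS replicates 1, 3, 4 and 5, and like C1qa was highest in sIVs replicate 4 and lowest in PBS replicate 1. Nearest to C4b was C1s1, the gene of the protease C1s, at 0.20, and Tnfrsf1b (0.23), Plekhg6 (0.26) and Ccdc194 (0.28) were also among its 5 nearest. C3 had no neighbour as close: Galnt12 was at 0.37, Top2a and Slc15a3 at 0.46, and Plau and Ccr2 at 0.48.

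A further 48 complement genes were listed for the rest of the system, and 24 of them passed the count filter. None of the 24 had an adjusted p under 0.05 in edgeR (0 in DESeq2 and limma-voom). Unadjusted, 1 of 24 had an edgeR p under 0.05 and was lower in sIVs retinas. Of all tested genes, 1.5% (255 of 17004) had such a p in either direction. Log2 fold changes were above 0 for 13 and below 0 for 11, with a median of 0.05, against 0.01 over all genes tested. In the initiation list, 5 of 13 genes were tested, with 2 above and 3 below 0. C1s1 stood at 1.22, 1.92, 2.16 and 3.64 CPM in sIVs replicates 1, 3, 4 and 5, and at 0.227, 2.26, 2.08 and 3.97 CPM in PBS replicates 1, 3, 4 and 5 (log2 fold change 0.05 ± 0.62 SE; edgeR adjusted p = 0.979). Like C4b it was highest in replicate 5 of each group. The others with a mean of at least 1 CPM were Colec12, a collectin, at 9.57 ± 7.05 CPM in sIVs and 8.89 ± 5.87 CPM in PBS retinas, the lectin pathway protease gene Masp2, at 4.40 ± 1.03 CPM in sIVs and 4.58 ± 0.943 CPM in PBS retinas, and C1rl, a relative of C1r, at 1.42 ± 0.689 CPM in sIVs and 1.74 ± 0.966 CPM in PBS retinas (SD, n = 4 each). The mannose-binding lectin genes Mbl1 and Mbl2, Fcnb and Colec10 had 0 counts in all libraries.

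Of the later cascade, 4 of 11 listed genes were tested, all with a log2 fold change above 0, the largest being 0.15. Cfp, the gene of properdin, which stabilises the alternative pathway enzyme, was the most abundant of them per length, and stood at 18.0 ± 3.34 CPM in sIVs and 16.2 ± 1.45 CPM in PBS retinas (SD, n = 4 each; log2 fold change 0.15 ± 0.16 SE; edgeR adjusted p = 0.81). Unlike the C1q chains it spanned 1.54-fold over the 8 libraries. C8g, a lipocalin chain of C8, stood at 3.00 ± 1.09 CPM in sIVs and 2.83 ± 0.583 CPM in PBS retinas, and C2, at 1.01 ± 0.287 CPM in sIVs and 0.978 ± 0.548 CPM in PBS retinas (SD, n = 4 each), was the other gene tested beside C4a. The genes of the membrane attack components C6, C7, C8a and C8b, and Hc, which encodes C5, did not pass the count filter, and C9 had 0 counts in all libraries.

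Per length, the regulators Vtn and Clu were above C1qa: Clu averaged 315 FPKM in sIVs and 242 FPKM in PBS retinas, and Vtn 375 FPKM in sIVs and 301 FPKM in PBS retinas. Clu, the gene of clusterin, which binds terminal complexes, stood at 717, 778, 1742 and 1196 CPM in sIVs replicates 1, 3, 4 and 5, and at 439.6, 929, 875 and 1142 CPM in PBS replicates 1, 3, 4 and 5. As for C1q, sIVs replicate 4 was highest and PBS replicate 1 lowest, within a 3.96-fold range (log2 fold change 0.39 ± 0.35 SE; edgeR adjusted p = 0.81). Vtn, the gene of vitronectin, stood at 779.9 ± 203 CPM in sIVs and 622 ± 80.4 CPM in PBS retinas (SD, n = 4 each; log2 fold change 0.33 ± 0.19 SE; edgeR adjusted p = 0.81). Cd59a, whose product blocks the membrane attack complex, stood at 29.0 ± 10.4 CPM in sIVs and 25.3 ± 4.89 CPM in PBS retinas (SD, n = 4 each). The membrane regulators Cr1l and Cd46 stood at 8.80 ± 3.06 and 6.47 ± 1.40 CPM in sIVs retinas and at 10.8 ± 2.26 and 7.11 ± 0.909 CPM in PBS retinas, and Susd4 at 72.4 ± 7.80 CPM in sIVs and 68.6 ± 4.29 CPM in PBS retinas (SD, n = 4 each). Of the 11 regulators tested, 5 were above and 6 below 0.

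Csmd3, which encodes a large neuronal membrane protein with complement control domains, was the 1 listed gene with an unadjusted p under 0.05. It stood at 14.7, 14.1, 5.76 and 11.5 CPM in sIVs replicates 1, 3, 4 and 5, and at 16.9, 18.2, 15.3 and 19.5 CPM in PBS replicates 1, 3, 4 and 5. All sIVs libraries were below all PBS libraries, a separation downwards that 0.929% of tested genes showed, and sIVs replicate 4 was far below the rest (log2 fold change -0.60 ± 0.26 SE; edgeR adjusted p = 0.81). Its relatives Csmd1 and Csmd2 stood at 13.1 ± 5.05 and 35.5 ± 13.8 CPM in sIVs retinas and at 20.1 ± 7.62 and 42.6 ± 9.78 CPM in PBS retinas (SD, n = 4 each). Both were likewise lowest in sIVs replicate 4.

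The complement receptor genes that were tested followed the pattern of the C1q chains at their low end. Of 8 listed, 4 were tested, 2 above and 2 below 0. C3ar1, the receptor gene for the C3a fragment, stood at 2.94, 8.17, 12.6 and 16.4 CPM in sIVs replicates 1, 3, 4 and 5, and at 0.227, 14.1, 8.40 and 18.2 CPM in PBS replicates 1, 3, 4 and 5 (log2 fold change -0.03 ± 0.83 SE; edgeR adjusted p = 0.992). PBS replicate 1 was lowest for C3ar1, with 3 counts, and for Itgam, Itgb2 and Itgax, which encode subunits of the leukocyte receptors for C3 fragments. Itgam stood at 3.04 ± 1.95 CPM in sIVs and 1.97 ± 1.04 CPM in PBS retinas, Itgb2 at 5.22 ± 2.42 CPM in sIVs and 4.81 ± 3.07 CPM in PBS retinas, and Itgax at 1.25 ± 0.541 CPM in sIVs and 1.33 ± 0.901 CPM in PBS retinas (SD, n = 4 each). C5ar1, C5ar2 and Cr2 did not pass the count filter, and Vsig4, a receptor gene of tissue macrophages, had 0 counts in all libraries. Cr2 was highest in PBS replicate 1, at 14 counts, against 4 to 11 counts in the other libraries. C5ar1 was lowest in PBS replicate 4, at 0 counts.

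**Figure D4:**
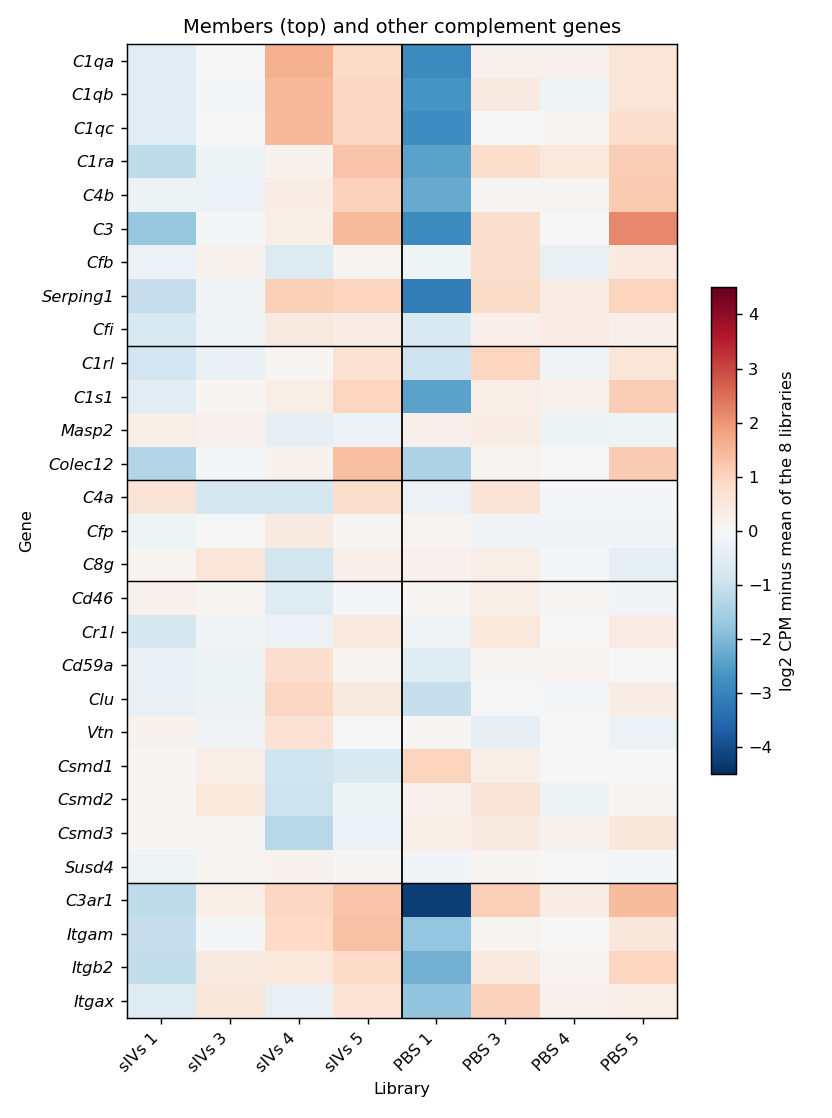
Log2 CPM of the 9 members (top block) and of 20 of the 21 other complement genes with a mean of at least 1 CPM (blocks: initiation, later cascade, regulators, receptors), each minus its mean over the 8 libraries, with sIVs libraries left of PBS libraries. The column of PBS replicate 1 is low for the C1q chains, C1ra, C4b, C3, Serping1, C1s1 and the 4 receptor genes, whereas Cfp and Susd4 vary little.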

How the data were processed

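RNA sequencing of 8 mouse retina libraries, 4 sIVs and 4 PBS, used poly(A) selection, a strand-marking protocol and 150 bp paired reads, per the labels' protocols. The authors deposited raw counts per Ensembl gene (54532 genes) and FPKM, which equal the deposited counts over listed length and library total times 1 constant per library (0.943 to 1.03). Per the submitters' processing notes the genome build is mm10; which aligner, counter and strand setting were used is not given in the sources used here. Groups and replicate numbers came from the titles.

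Counts were filtered with filterByExpr (17004 genes kept), scaled with TMM factors and tested with edgeR 4.0.16 (quasi-likelihood F test, two-sided, group only, Benjamini-Hochberg over all genes at 0.05; R 4.3.3). Standard errors are the absolute log2 fold change over the square root of F, so intervals are approximate. Log2 CPM used a prior count of 2. DESeq2 1.42.0, limma 3.58.1 and other settings were alternatives. Fits were tested on simulated data. Shared sequence was searched in GENCODE M21 transcripts. The members and gene lists were chosen with earlier results of these data known. The named-gene rule took all 9 members, other complement genes with a mean of at least 1 CPM, and the 5 protein-coding genes nearest to C1qa, C3 and C4b; C2, with a mean just under 1 CPM, was added to it after its values were seen. A pair of genes under this rule is not reported here.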

Additional observations from a re-analysis of the deposited data

How the results depend on the processing

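Each of 18 alternatives gave 0 genes called, 0 of them complement genes; single libraries left out gave 136 to 958 genes at an unadjusted p under 0.05. Of 145 log2 fold changes of complement genes, 18 changed sign, and the lowest adjusted p was 0.577; the cause was not tested. With limma-voom sample quality weights, C4b was -0.12 and Serping1 -0.52, and C1qa was 0.05. Without both PBS replicate 1 and sIVs replicate 4, C1qa was -0.0924, C1qb -0.0371, C1qc -0.0815, C4b -0.24 and Serping1 -0.57. Leaving out single libraries, the ranges were 0.26 to 1.01 for C1qa, 0.31 to 1.00 for C1qb, 0.27 to 1.08 for C1qc, -0.80 to 0.12 for C1ra, -0.24 to 0.67 for C4b, -1.14 to 0.47 for C3, -0.30 to 0.37 for Serping1 and -0.26 to 0.12 for Cfi. Cfb, tested only without the filter (-0.46) and in DESeq2 (-0.48), had 3 to 12 counts per library.

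Same-numbered libraries correlated in their deviations from the group means at 0.60, 0.02, 0.23 and 0.51 for replicates 1, 3, 4 and 5. PBS replicates 1, 4 and 5 correlated best with the same-numbered sIVs library, and PBS replicate 3 with sIVs replicate 5 (0.26). The labels name no pairs and these values do not settle pairing, so the main fit used the group only. With the replicate number as a block, 0 genes were called (588 unadjusted, against 255 without it), and C1qa was 0.90, C1qb 0.88, C1qc 0.86, C4b 0.37, Serping1 0.36, C3 -0.13, C1ra -0.10 and Cfi -0.07. C1qa, C1qb and C1qc shared the lowest edgeR adjusted p of these genes in either fit, 0.655 with the block and 0.81 without it. With the block the SE of C1qa was 0.39 and that of C3 0.32, against 0.64 and 0.87 without it. Unadjusted, the edgeR p of C1qa, C1qb and C1qc was 0.056, 0.072 and 0.055 with the block and 0.27, 0.26 and 0.31 without it.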
